A study of Homo sapiens with 24 samples.

Results

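Newly made RNA of 4 transcription termination genes, ZC3H4, WDR82, SYMPK and XRN2, was followed in human colorectal cells in which a subunit of the Integrator complex was degraded. They are the genes whose symbol in the deposited files equals one of 10 names chosen for their part in ending transcription. The choice was made with earlier results of these data known, so the calls describe these genes and are not an unselected test. CPSF1, CPSF2, CPSF3, CSTF3, PCF11 and SRRT (also called ARS2), the other 6 names, were not analysed here. The 4 genes stand among 7223 genes listed in the files. After loss of the tagged subunit, ZC3H4 was higher in each of 7 comparisons, by log2 fold changes of 0.54 to 1.34. SYMPK was lower in 6 of them, WDR82 in 4 and XRN2 in 3. In those comparisons 19.4% to 66% of all genes were called higher and 4.92% to 21% lower. With each library centred on its median gene, ZC3H4 was still higher in 7, and SYMPK was lower in 7, WDR82 in 6 and XRN2 in 7. On that scale 26.1% to 31.8% of all genes were called higher and 24.5% to 36.4% lower.

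RNA polymerase II is taken off DNA in several ways. At the ends of protein-coding genes, the cleavage and polyadenylation machinery, for which SYMPK is a scaffold, cuts the RNA, and the exonuclease XRN2 degrades the piece that is still being made. Early in transcription, ZC3H4 and its partner WDR82 form a complex known as the restrictor, which ends many short non-coding transcripts. Integrator, joined with the phosphatase PP2A in INTAC, also ends transcription close to promoters, through the RNA endonuclease INTS11. INTS8 is one of the subunits that hold the phosphatase.

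The assay was TT-seq, which sequences RNA labelled during a brief pulse and so reads what is being transcribed at the time. The cells were DLD1, an established line of colorectal adenocarcinoma, in 3 engineered lines that all carry a degron tag at an Integrator gene. The degron lets dTAG13, a small molecule, send the tagged protein to degradation. The study asked how the endonuclease and phosphatase parts of INTAC differ in transcription. In the INTS11 line the tag is knocked in at INTS11, and in the INTS8 line at INTS8. The N211del line carries the tag at INTS8 and also makes an INTS8 variant, named N211del in the labels, from an added copy. The labels do not name the promoter of that copy or say whether a line is a single clone. In batch 1 each line had 3 h of dTAG13, with 3 h of the vehicle DMSO as control. In batch 2 only INTS11 and N211del cells were used, treated for 0, 1 or 3 h, and no vehicle group is among the samples. The DMSO and 0 h cells carry the tag too. No untagged cells were given dTAG13, so effects of the molecule itself cannot be told apart from loss of the tagged protein. There were 12 groups of 2 libraries each.

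Values are the deposited signal per kilobase of gene. They behave as whole-number units divided by gene length, and batch 2 values also carry a scaling factor for each library. Libraries of batch 1 summed to between 5517104 and 8119831 such units and those of batch 2 to between 8709274 and 11266617. Batch 1 values show no such factor, so differences in these totals stay in the deposited values. The N211del DMSO libraries summed to 5614822 and 5517104, and the INTS11 DMSO libraries to 7026277 and 7102298. In a single library each of the 4 genes held at least 664 units (SYMPK) and at most 4199 (XRN2). The epithelial markers EPCAM, CDH1, KRT8, KRT18, KRT19, CDX2 and CDH17 were at 8.37 or more in every library. KRT20 was at 0 to 0.126 and LGALS4 at 0.240 to 1.62, and the fibroblast marker COL1A1 did not pass 0.318. VIL1, PTPRC, VIM, PECAM1 and CD3E were not analysed here. In the N211del line the median log2 fold change over all genes after dTAG13 was 0.21 in batch 1, and 0.31 at 1 h and 0.18 at 3 h in batch 2. In the INTS11 line it was −0.03 in batch 1, and 0.16 at 1 h and 0.08 at 3 h in batch 2. The INTS8 line had 0.06. Fold changes of the 4 genes are therefore also given after every library was centred on its own median gene. Centring subtracts the median of each library, so what it removes need not equal the values above. A gene is called where its limma p, adjusted over all genes tested, is under 0.05. These libraries pool many cells, so fewer cells making an RNA and less of it per cell cannot be told apart.

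The 250 bases before the annotated start of ZC3H4 and of SYMPK are shown because these genes moved in opposite directions while lying on one chromosome and reading the same strand. They come from RefSeq, build GRCh38.p14, and run 5′ to 3′ on the minus strand, at chr19:47113777-47114026 for ZC3H4 and chr19:45863148-45863397 for SYMPK. Capitals mark the short motifs found on either strand.
ZC3H4: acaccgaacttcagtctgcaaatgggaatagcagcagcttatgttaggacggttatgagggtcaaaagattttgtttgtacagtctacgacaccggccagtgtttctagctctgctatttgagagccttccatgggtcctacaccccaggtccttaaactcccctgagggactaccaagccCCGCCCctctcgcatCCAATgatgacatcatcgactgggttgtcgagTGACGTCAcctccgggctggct
SYMPK: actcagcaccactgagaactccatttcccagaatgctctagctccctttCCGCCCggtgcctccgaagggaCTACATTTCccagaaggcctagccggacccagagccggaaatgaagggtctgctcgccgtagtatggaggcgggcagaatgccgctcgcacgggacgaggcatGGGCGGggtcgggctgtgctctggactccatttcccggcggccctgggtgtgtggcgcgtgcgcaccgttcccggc
The ZC3H4 stretch is 52.4% G and C and the SYMPK stretch 64.8%. In ZC3H4 the capitals are a GC box read from the other strand, a CCAAT box and TGACGTCA, the full cAMP response element. That element lies 22 to 15 bases before the start of ZC3H4. Among 34943 promoter windows of this length 1.63% hold it, and those of WDR82 (88 to 81 bases before the start) and XRN2 (54 to 47 bases before) do too. The SYMPK window has none. Its capitals are 2 GC boxes, 1 on each strand, and a match to CTACANNTC, the start of a ZNF143 site, which 3.25% of windows hold. The GC box, GGGCGG, is in 42.5% of all windows, and CCAAT is in 32%. Neither window holds TATAAA, found in 10.8% of all, or the ETS site CCGGAAG, found in 8.48%. No motif searched overlapped another in these windows. The motifs were picked after the sequences had been read, and a match describes letters only.

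ZC3H4, the zinc finger protein of the restrictor, had a higher signal after dTAG13 in all 3 lines. In the INTS11 line of batch 1 it stood at 41.8 and 40.7 units per kb after dTAG13, against 23.0 and 23.9 after DMSO. The INTS8 line had 49.8 and 46.6 after dTAG13, against 27.0 and 26.2 after DMSO. N211del cells were at 33.1 and 36.9 after dTAG13, against 23.2 and 22.1 after DMSO. Every treated library was above every DMSO library, and the INTS8 line reached the highest level.

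Batch 2 adds the time course. The INTS11 line had 15.02 and 13.2 units per kb of ZC3H4 at 0 h, 35.1 and 36.7 at 1 h, and 33.6 and 32.9 at 3 h. N211del cells were at 21.9 and 22.3 at 0 h, 36.3 and 35.1 at 1 h, and 32.2 and 32.2 at 3 h. The lines therefore started at levels that did not overlap, and overlapped at 1 h. From 1 h to 3 h neither line changed past the threshold, with log2 fold changes of −0.11 (adjusted p = 0.196, limma) in the INTS11 line and −0.15 (adjusted p = 0.0608) in the N211del line. A fit of only the libraries compared did call the N211del value (adjusted p = 0.0279), and that of SYMPK at −0.14 (adjusted p = 0.0385).

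**Figure D1:**
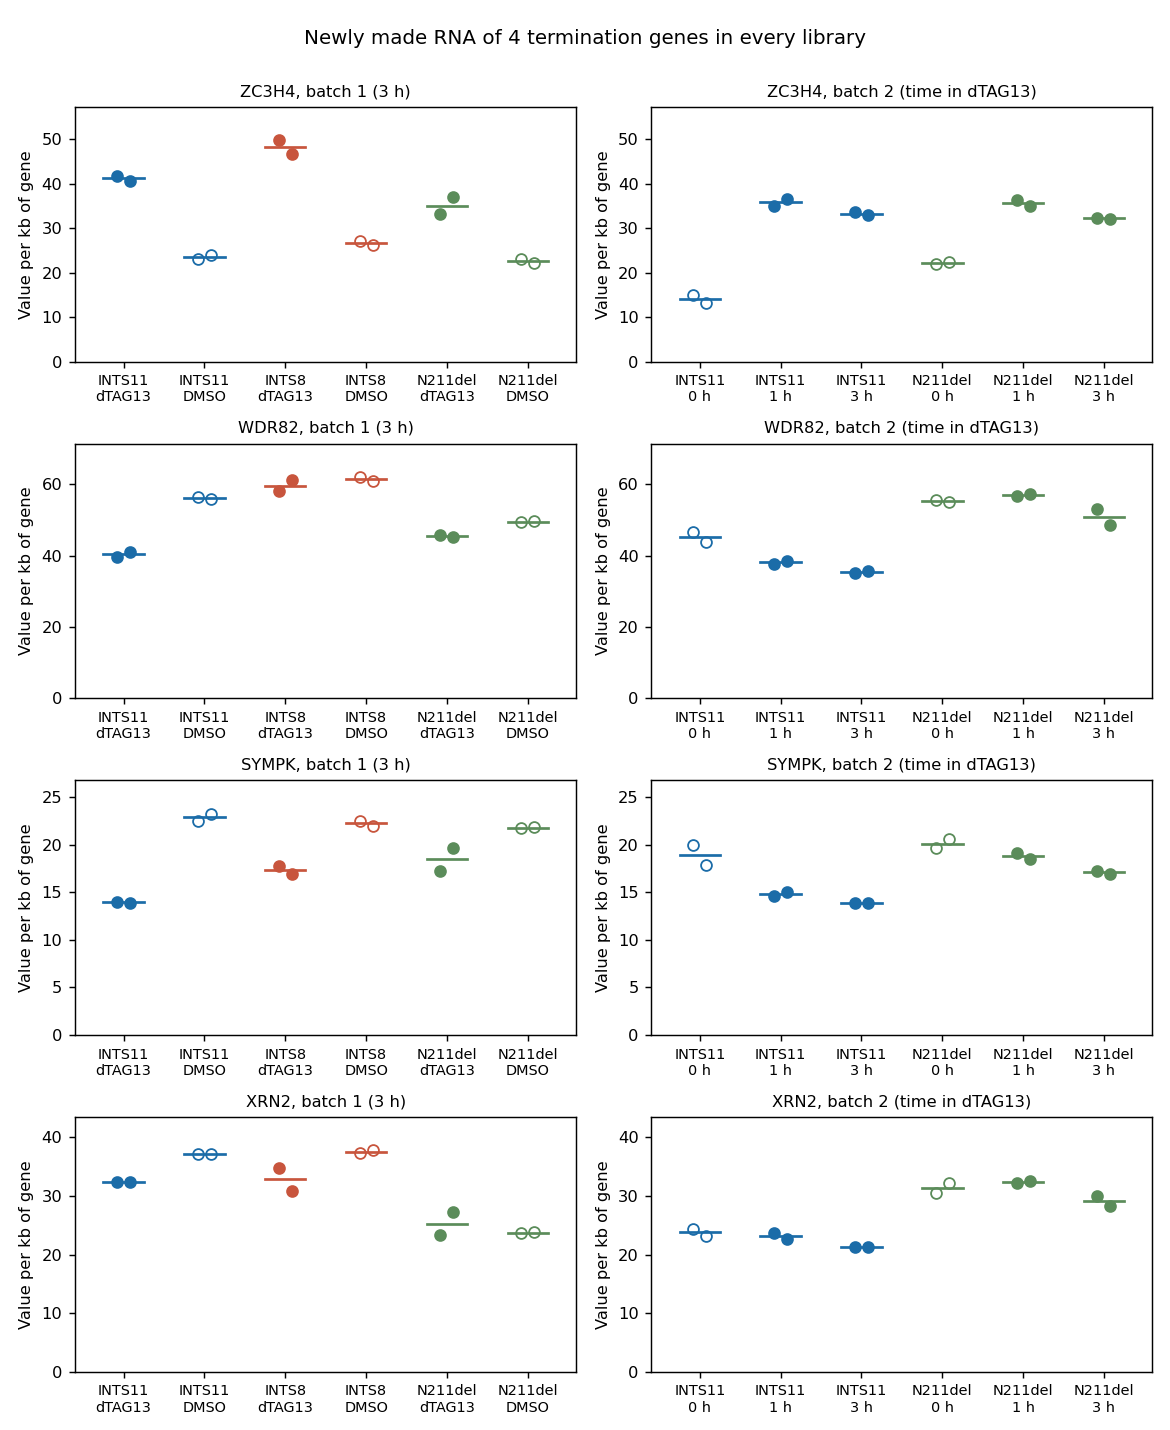
Signal per kilobase of gene (vertical axes, from 0) in every library for ZC3H4, WDR82, SYMPK and XRN2, batch 1 on the left and batch 2 on the right. Circles are libraries (open for DMSO and 0 h, filled for dTAG13), bars are means of 2, and every filled ZC3H4 circle lies above every open one of its batch.

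The fits put the rise of ZC3H4 in batch 1 at a log2 fold change of 0.81 ± 0.07 (SE) in the INTS11 line, 0.86 ± 0.07 in the INTS8 line and 0.63 ± 0.07 in the N211del line (limma, adjusted p = 2.30e-08, 1.56e-09 and 2.09e-07). In batch 2 the INTS11 line was up by 1.34 ± 0.06 at 1 h and 1.23 ± 0.06 at 3 h, and the N211del line by 0.69 ± 0.06 and 0.54 ± 0.06 (adjusted p = 4.35e-07, 7.89e-07, 2.85e-06 and 2.07e-05). As folds these run from 1.45 to 2.53. The 1 h and 3 h comparisons share the 0 h libraries of their line. Relative to the median gene the rise was 0.85, 0.75 and 0.36 in the INTS11, INTS8 and N211del lines of batch 1. In batch 2 it was 1.19 and 1.18 in the INTS11 line, and 0.34 at both times in the N211del line. All 7 calls held on that scale.

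WDR82, the adaptor that binds ZC3H4 and also the SET1 histone methyltransferases, went the other way in the INTS11 line. There it stood at 39.7 and 40.9 units per kb after dTAG13, against 56.5 and 55.8 after DMSO (log2 fold change −0.48 ± 0.06, limma adjusted p = 4.97e-06). The INTS8 line had 58.1 and 61.2 after dTAG13, against 62.1 and 60.9 after DMSO, and its groups overlapped (−0.04 ± 0.06, adjusted p = 0.581). In the N211del line of batch 1 the values were 45.9 and 45.3 after dTAG13, against 49.4 and 49.8 after DMSO (−0.12 ± 0.06, adjusted p = 0.119). The treated INTS11 libraries were thus the lowest of batch 1.

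In batch 2 WDR82 in the INTS11 line was at 46.5 and 43.7 units per kb at 0 h, 37.6 and 38.6 at 1 h, and 35.1 and 35.6 at 3 h. It fell by 0.24 ± 0.05 at 1 h and by 0.35 ± 0.05 at 3 h on the log2 scale (adjusted p = 0.00162 and 0.000211, limma). N211del cells had 55.6 and 55.2 at 0 h, 56.6 and 57.2 at 1 h, and 53.2 and 48.7 at 3 h. The fall of WDR82 at 3 h there was −0.12 ± 0.05 (adjusted p = 0.0423), and without the lower 3 h library it was −0.06 (adjusted p = 0.333). Leaving out either 0 h library also ended that call, at −0.12 (adjusted p = 0.128) and −0.13 (adjusted p = 0.0991). Relative to the median gene WDR82 was lower in 6 of 7 comparisons, by −0.31 to −0.44. The INTS8 line, at −0.15 (adjusted p = 0.0773), was the exception.

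SYMPK, symplekin, holds together the cleavage factors that act at poly(A) sites and at histone genes. After dTAG13 it stood at 13.97 and 13.91 units per kb in the INTS11 line, against 22.5 and 23.3 after DMSO. The INTS8 line had 17.7 and 16.9 after dTAG13, against 22.5 and 22.0 after DMSO. N211del cells were at 17.2 and 19.7 after dTAG13, against 21.7 and 21.8 after DMSO. No treated library reached a DMSO library of its line, and the INTS11 line went lowest.

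At 0, 1 and 3 h the INTS11 line had SYMPK at 19.99 and 17.9, 14.6 and 15.01, and 13.92 and 13.88 units per kb. The N211del line had 19.6 and 20.6, 19.2 and 18.5, and 17.3 and 16.9. The treated libraries lay below the 0 h libraries of their line at both times, and in INTS11 cells the step from 1 h to 3 h was −0.09 (adjusted p = 0.258, limma).

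SYMPK fell by 0.71 ± 0.08 on the log2 scale in the INTS11 line of batch 1, by 0.36 ± 0.08 in the INTS8 line and by 0.24 ± 0.08 in the N211del line (limma, adjusted p = 3.92e-07, 0.000503 and 0.0129). In batch 2 it fell by 0.35 ± 0.05 at 1 h and 0.44 ± 0.05 at 3 h in the INTS11 line (adjusted p = 0.000404 and 0.000123), and by 0.23 ± 0.05 at 3 h in the N211del line (adjusted p = 0.00364). At 1 h N211del cells were at −0.09 ± 0.05 (adjusted p = 0.146). The batch 1 call in N211del cells was lost without the lower treated library (−0.14, adjusted p = 0.0619) or without either DMSO library (−0.24 each, adjusted p = 0.0597 and 0.0713). Relative to the median gene SYMPK was lower in all 7 comparisons, by −0.68 in the INTS11 line of batch 1 and by −0.43 to −0.50 in the other 6.

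XRN2, the exonuclease that chases polymerase after cleavage, had log2 fold changes between −0.20 and 0.09. In batch 1 the INTS11 line had 32.3 and 32.4 units per kb after dTAG13, against 37.2 and 37.2 after DMSO (log2 fold change −0.20 ± 0.08, limma adjusted p = 0.0480). The INTS8 line had 34.8 and 30.9 after dTAG13, against 37.3 and 37.8 after DMSO (−0.19 ± 0.08, adjusted p = 0.0417). N211del cells had 23.3 and 27.3 after dTAG13, against 23.7 and 23.8 after DMSO (0.09 ± 0.08, adjusted p = 0.361). The higher of those treated N211del libraries also had higher values of SYMPK and ZC3H4 than its partner, and a lower one of WDR82 (45.3, against 45.9). Its units summed to 7019655, against 6179411 for its partner. How far these totals account for the higher values was not tested.

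Both batch 1 calls of XRN2 were near the threshold. The INTS11 call was lost without any 1 of its 4 libraries (adjusted p = 0.125 to 0.146), and the INTS8 call without either DMSO library or the lower treated library (−0.20, −0.19 and −0.11, adjusted p = 0.110, 0.144 and 0.355).

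In batch 2 XRN2 in the INTS11 line was at 24.3 and 23.2 units per kb at 0 h, 23.6 and 22.7 at 1 h, and 21.2 and 21.3 at 3 h, and only the 3 h fall of −0.16 ± 0.04 passed the threshold (adjusted p = 0.0119, limma). It fell short without the higher 0 h library (−0.13, adjusted p = 0.0719) or the lower 3 h library (−0.16, adjusted p = 0.0558). N211del cells had 30.5 and 32.2 at 0 h, 32.1 and 32.5 at 1 h, and 29.9 and 28.4 at 3 h, with log2 fold changes of 0.04 (adjusted p = 0.386) and −0.10 (adjusted p = 0.0611); the 3 h value passed at −0.14 without the lower 0 h library (adjusted p = 0.0400) or the higher 3 h library (adjusted p = 0.0481). Relative to the median gene XRN2 was lower in all 7 comparisons, by −0.17 to −0.31. For N211del cells this reverses the sign in batch 1 (−0.17) and at 1 h (−0.31). Leaving out the lower treated N211del library of batch 1 gave 0.20 on the deposited scale, in the other direction. The treated library then left was the one that summed to more units.

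**Figure D2:**
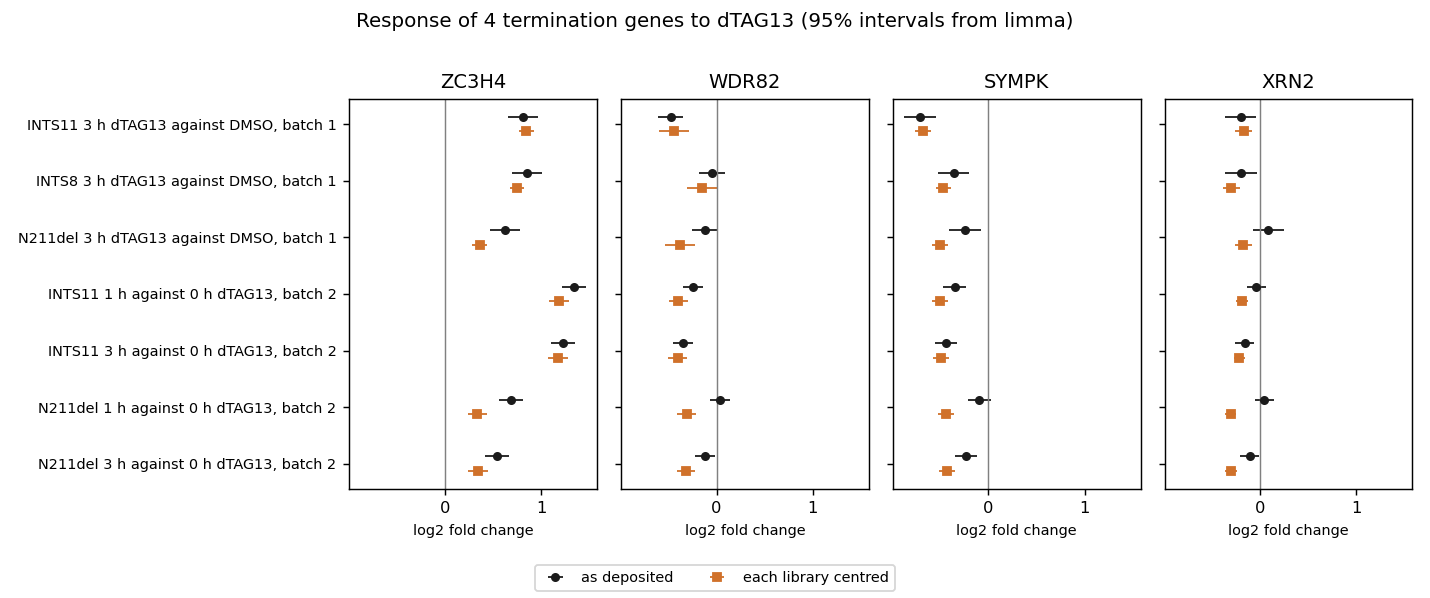
Log2 fold change of ZC3H4, WDR82, SYMPK and XRN2 after dTAG13 (horizontal axes) in 7 comparisons, with 95% intervals from limma; black circles are as deposited and orange squares have each library centred on its median gene. ZC3H4 lies right of 0 throughout, from 0.54 to 1.34 as deposited, and the centred values of SYMPK and XRN2 lie left of 0 throughout.

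Many genes passed the threshold in each comparison, so the calls of the 4 members are set beside the share of all tested genes called the same way. In the INTS11 line of batch 1, 1 member was higher, as were 19.4% of all genes, and 3 were lower, as were 19.8%; after centring, 1 was higher (26.1% of all genes) and 3 lower (24.5%). For the INTS8 line 1 was higher (34.6%) and 2 lower (21%), and after centring 1 higher (30.7%) and 2 lower (36.4%). For the N211del line of batch 1, 1 was higher (48.5%) and 1 lower (7.1%), and after centring 1 higher (26.9%) and 3 lower (35.2%). The batch 1 call of ZC3H4 as higher was thus one that 19.4% to 48.5% of all genes shared.

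In batch 2 the INTS11 line at 1 h had 1 member higher (46% of all genes) and 2 lower (9.86%), and after centring 1 higher (29%) and 3 lower (30.3%). At 3 h it had 1 higher (36%) and 3 lower (19.3%), and after centring 1 higher (31.8%) and 3 lower (28.9%). The N211del line at 1 h had 1 member higher (66%) and 0 lower (4.92%), with none lower at an unadjusted p under 0.05 either, and after centring 1 higher (29.5%) and 3 lower (36.1%), as with voom. At 3 h it had 1 higher (49.7%) and 2 lower (13.8%), and after centring 1 higher (30.9%) and 3 lower (35.1%). Between 1 h and 3 h, 0 members were called in the INTS11 line, where 15.6% of all genes were in either direction; WDR82 and XRN2 had an unadjusted p of 0.0436 and 0.0199 by limma, and voom also called 0. Among N211del cells 2 members were called, WDR82 at −0.16 (adjusted p = 0.0231) and XRN2 at −0.15 (adjusted p = 0.0258), where 37.2% of all genes were; after centring both were within 0.01 of 0. Each of these calls was lost without either 1 h library or 3 h replicate 2 (adjusted p = 0.0774 to 0.173 for WDR82 and 0.0817 to 0.17 for XRN2).

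Whether the lines differed in their response was tested directly as a difference of log2 fold changes. ZC3H4 rose more in the INTS11 line than in the N211del line in batch 2, by 0.65 ± 0.08 at 1 h and 0.69 ± 0.08 at 3 h (limma, adjusted p = 0.000152 and 9.24e-05), and by 0.85 and 0.84 after centring. In batch 1 the same difference was 0.19 ± 0.10 (adjusted p = 0.140), 0.27 without treated N211del replicate 2 (adjusted p = 0.03), and 0.48 after centring (adjusted p = 0.000141). The INTS11 and INTS8 lines differed by −0.04 for ZC3H4, with a 95% interval of −0.26 to 0.17 (adjusted p = 0.815). N211del minus INTS8 gave −0.23 (adjusted p = 0.130), and −0.39 after centring (adjusted p = 0.00336). The batch 2 differences of ZC3H4 contain a gap at 0 h, where it was 0.65 higher in N211del than in INTS11 cells (0.61 after centring).

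SYMPK and WDR82 fell more in the INTS11 line than in the INTS8 line, by −0.35 (adjusted p = 0.0229) for SYMPK and −0.43 (adjusted p = 0.000969) for WDR82, and by −0.21 (adjusted p = 0.00847) and −0.29 (adjusted p = 0.0374) after centring. Against the N211del line of batch 1 the differences were −0.47 for SYMPK, −0.36 for WDR82 and −0.29 for XRN2 (adjusted p = 0.00199, 0.00342 and 0.0378). After centring SYMPK kept −0.18 (adjusted p = 0.0219), WDR82 had −0.06 (adjusted p = 0.652) and XRN2 0.01 (adjusted p = 0.951). In batch 2 SYMPK differed from the N211del line by −0.26 at 1 h and −0.21 at 3 h and WDR82 by −0.28 and −0.23, all past the threshold, and after centring by −0.06, −0.07, −0.09 and −0.09, all short of it.

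Several of these differences between lines did not hold when 1 library was left out. The SYMPK difference between the INTS11 and INTS8 lines kept its call only without INTS11 DMSO replicate 1 or treated INTS8 replicate 2 (adjusted p = 0.0571 to 0.0836 without each of the others). For XRN2 the batch 1 difference kept its call only without treated N211del replicate 1 (adjusted p = 0.065 to 0.145 otherwise). In batch 2 the SYMPK difference at 3 h kept its call only without 0 h replicate 2 of either line (adjusted p = 0.0685 to 0.121 otherwise), and at 1 h it was lost without replicate 1 of the 1 h groups or of N211del at 0 h (adjusted p = 0.0508 to 0.0599). The WDR82 difference at 3 h was lost without INTS11 0 h replicate 1 or N211del 3 h replicate 1 (adjusted p = 0.0514 and 0.0555).

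Of the 4 members, 2 differed between the INTS11 and INTS8 lines and 3 between the INTS11 and N211del lines of batch 1, where 25.4% and 48.5% of all tested genes did in either direction. Between the N211del and INTS8 lines 0 did (11.1% of all genes), though ZC3H4 and XRN2 had an unadjusted p of 0.0381 and 0.0195 by limma. Voom called 3 there, and 1346 of all 6579 genes. At 1 h and at 3 h of batch 2, 3 members differed each time, where 48.6% and 50.9% of all genes did.

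**Figure D3:**
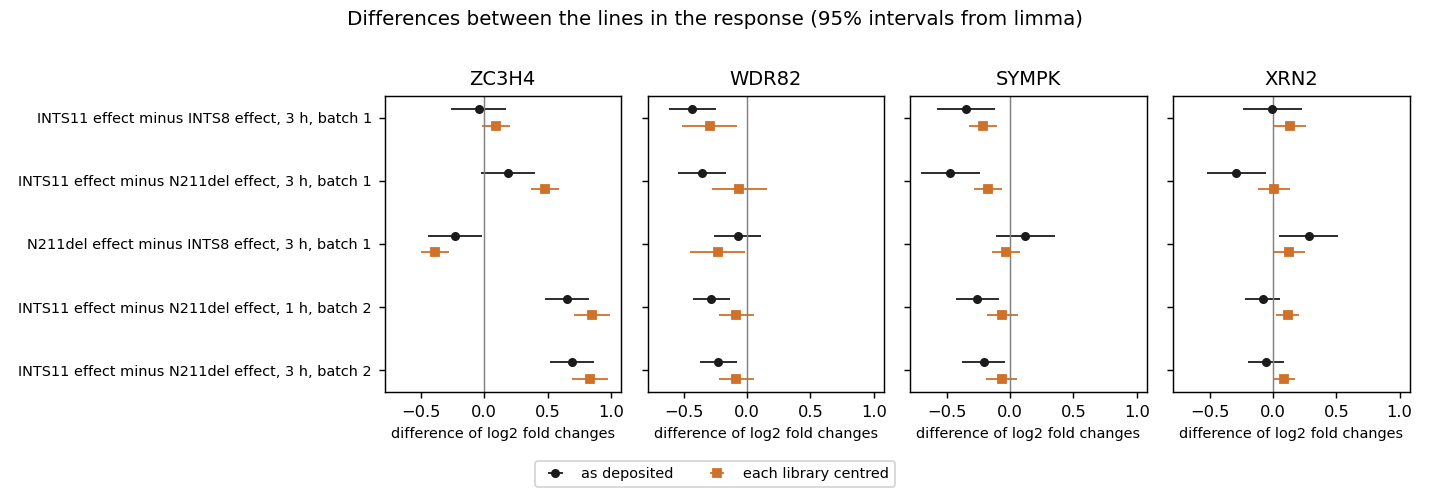
Differences between lines in the log2 fold change after dTAG13 (horizontal axes) for ZC3H4, WDR82, SYMPK and XRN2, with 95% intervals from limma; black circles are as deposited and orange squares have each library centred. For ZC3H4 the 2 batch 2 differences lie at 0.65 and 0.69 as deposited, and for XRN2 the batch 1 difference between the INTS11 and N211del lines is −0.29 as deposited and 0.01 with centring.

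Control cells of the lines were not alike, and the order of the lines differed between batches. At 0 h ZC3H4 was at 22.1 ± 0.257 units per kb in N211del cells and 14.1 ± 1.29 in INTS11 cells (SD, n = 2 each). That log2 fold change was 0.65, and 0.61 after centring (limma, adjusted p = 4.90e-06 and 3.74e-06). Among the DMSO cells of batch 1 it averaged 22.6 in N211del cells and 23.4 in INTS11 cells, and those groups overlapped (−0.05, adjusted p = 0.568), but after centring N211del cells were higher by 0.16 (adjusted p = 0.00243). XRN2 averaged 23.7 in N211del DMSO cells and 37.2 in INTS11 DMSO cells (−0.65, adjusted p = 4.42e-07), but 31.4 in N211del cells and 23.8 in INTS11 cells at 0 h (0.40, adjusted p = 2.71e-05), and kept these directions after centring (−0.44 and 0.36). WDR82 was lower in N211del than in INTS11 cells with DMSO (−0.18, adjusted p = 0.0177) and higher at 0 h (0.29, adjusted p = 0.000292), but centring turned the DMSO value to 0.03, and its call was lost without any 1 of the 4 DMSO libraries (adjusted p = 0.0608 to 0.0978).

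SYMPK lay at 21.7 to 23.3 units per kb in the 6 DMSO libraries and 17.9 to 20.6 in the 4 libraries at 0 h. After centring its DMSO levels differed between lines. N211del was above INTS8 by 0.28 and above INTS11 by 0.14 (limma, adjusted p = 0.000315 and 0.00561). INTS8 against INTS11 gave −0.14 (adjusted p = 0.0110). At 0 h the centred value was 0.05 (adjusted p = 0.239). In batch 1, N211del DMSO cells differed from INTS11 DMSO cells in 2 members (65.5% of all genes in either direction) and from INTS8 DMSO cells in 3 (63.7%). The 3 were ZC3H4 (−0.23), WDR82 (−0.31) and XRN2 (−0.66), and after centring they were at 0.08, 0.00 and −0.35. Leaving out INTS8 replicate 1 or N211del replicate 2 ended that ZC3H4 call (adjusted p = 0.0717 and 0.0885). The INTS8 and INTS11 lines differed in 0 (30.7%), with an unadjusted p of 0.0218 for ZC3H4 by limma and 1 called by voom (2883 of all 6579 genes). At 0 h of batch 2, 3 members differed (70%). Since batches differ in scaling and in their controls, levels were not tested across them.

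Ordered by level within batch 1, ZC3H4 ran from the treated INTS8, INTS11 and N211del lines down to INTS8, INTS11 and N211del DMSO cells, and of neighbours in that order only the INTS11 and N211del DMSO cells overlapped. In batch 2 the INTS11 and N211del lines at 1 h came first and overlapped, followed by INTS11 at 3 h, N211del at 3 h, N211del at 0 h and INTS11 at 0 h. Of the 4 genes, WDR82 had the highest mean signal per kb in 11 of 12 groups. The exception was treated INTS11 cells of batch 1, with 41.2 for ZC3H4 and 40.3 for WDR82. SYMPK had the lowest in 11 of 12, and there the exception was INTS11 cells at 0 h, with 14.1 for ZC3H4 and 18.9 for SYMPK.

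The nearest listed genes on either side of ZC3H4 and SYMPK were read the same way. ARHGAP35 lies on the lower-coordinate side of ZC3H4, and it fell in all 7 comparisons, with log2 fold changes of −0.14 to −0.99. In the INTS8 line it stood at 26.7 and 24.3 units per kb after dTAG13, against 50.4 and 51.0 after DMSO. SAE1, a SUMO-activating subunit on the other side, fell in 5 of 7, and in all 7 after centring, for example by −0.35 in the INTS11 line of batch 1 (adjusted p = 0.00207, limma).

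DMWD, on the lower-coordinate side of SYMPK and the same strand, was called in 1 of 7 comparisons, the INTS11 line of batch 1 (−0.36, adjusted p = 0.00222), and after centring also in the N211del line at 1 h (−0.25, adjusted p = 0.0234). FOXA3, a liver and gut transcription factor gene on the other strand of that locus, rose in all 7 (adjusted p = 2.80e-05 to 0.00521, limma). It stood at 6.23 and 5.91 units per kb in the INTS8 line after dTAG13, against 0.317 and 0.317 after DMSO. INTS11 cells of batch 1 were at 2.74 and 3.27 after dTAG13, against 1.06 and 0.317 after DMSO. Its control libraries held only 3 to 17 whole-number units, so no fold is given. No source used here says whether counting used strand, so reads of overlapping or antisense RNA cannot be told apart from those of the listed gene.

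Genes with the pattern most like each were found by Pearson correlation of group means over the 12 groups among 6269 genes, as a description of libraries that share batches and controls. For ZC3H4 these were CHRAC1 (r = 0.976), a chromatin accessibility subunit, SKIDA1 (0.973), C9orf64 (0.968), C10orf143 (0.966) and CD8A (0.959), a T cell co-receptor gene. CHRAC1 had log2 fold changes of 0.98, 0.79 and 0.47 in the INTS11, INTS8 and N211del lines of batch 1. For SYMPK they were the kinase gene ARAF (0.964), the RNA polymerase III subunit gene POLR3E (0.943), the Wnt feedback gene AXIN2 (0.940), SZRD1 (0.911) and RRP7A (0.887). POLR3E had −0.63, −0.36 and −0.17 in the same comparisons.

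The wider pathways were read from lists of names of which the files hold a part. Of 20 cleavage and polyadenylation genes 7 were present, SYMPK among them. After dTAG13, 4 of the 7 were lower in the INTS11 line of batch 1, as were 19.8% of all genes, with a median of −0.23 beside −0.03 for all genes; after centring 4 were lower (24.5%). CLP1, an RNA kinase of the cleavage factors, fell by 0.42 (adjusted p = 0.00165, limma) and RBBP6, a ubiquitin ligase of the same machinery, by 0.32 (adjusted p = 0.000793). Neither was called in that line at 3 h of batch 2, with CLP1 at −0.11 (adjusted p = 0.453) and RBBP6 at 0.04 (adjusted p = 0.594). In the INTS8 line 2 were lower (21% of all genes) and 1 was higher (34.6%), and after centring 4 were lower (36.4%) and 1 higher (30.7%). The higher gene was the poly(A) polymerase PAPOLG. It averaged 45.5 ± 1.36 units per kb after dTAG13 and 27.0 ± 0.943 after DMSO (SD, n = 2 each; log2 fold change 0.75, adjusted p = 2.53e-08). PAPOLG rose in the N211del line too, by 0.65 in batch 1 (adjusted p = 2.24e-07) and 0.51 at 3 h of batch 2 (adjusted p = 1.66e-05), or by 0.39 and 0.31 after centring (adjusted p = 9.03e-05 and 4.37e-05). In the INTS11 line PAPOLG was not called on the deposited scale. After centring it was lower there at 1 h (−0.11, limma adjusted p = 0.0159) and at 3 h of batch 2 (−0.13, adjusted p = 0.0082). At 3 h of batch 2, INTS11 cells had 2 of the 7 lower (19.3% of all genes), SYMPK and CPSF6, which helps to choose poly(A) sites (−0.25, adjusted p = 0.00335), and 3 lower after centring (28.9%).

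Of 15 genes for termination and for partners of the polymerase's C-terminal domain, 9 were present, XRN2 among them. Batch 1 INTS11 cells had 4 lower (19.8% of all genes) and 0 higher (19.4%) after dTAG13, with a median of −0.17 beside −0.03 for all genes, and after centring 6 lower (24.5%). SSU72, a phosphatase of that domain, fell by 0.32 (adjusted p = 0.00122, limma) and the phosphatase subunit PPP1CB by 0.25 (adjusted p = 0.0104). In INTS11 cells at 3 h of batch 2 SSU72 was at −0.06 (adjusted p = 0.277), or −0.11 after centring (adjusted p = 0.0137). PPP1CB fell there by 0.27 (adjusted p = 0.000299). The same line at 3 h of batch 2 had 5 lower (19.3%) and 1 higher (36%), with a median of −0.15 beside 0.08, and after centring 7 lower (28.9%) and 1 higher (31.8%). The gene that rose was RPRD2, which binds the C-terminal domain, at 2.97 ± 0.147 at 3 h and 2.13 ± 0.0641 at 0 h (0.46, adjusted p = 0.000522). The INTS8 line had 2 lower (21%) and 1 higher (34.6%), again RPRD2 (0.45, adjusted p = 0.00200), and after centring 7 lower (36.4%) and 1 higher (30.7%). The N211del line of batch 1 had 2 higher (48.5%) and 0 lower (7.1%), with a median of 0.12 that lay under the 0.21 of all genes, and after centring it had 0 higher (26.9%) and 7 lower (35.2%).

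Of 12 restrictor and SET1 genes 9 were present, ZC3H4 and WDR82 among them. ZC3H6 and ZC3H8 are relatives of ZC3H4. ZC3H6 averaged 2.13 ± 0.0988 units per kb in the INTS8 line after dTAG13 and 5.91 ± 0.143 after DMSO (SD, n = 2 each; −1.43, limma adjusted p = 4.27e-10). In N211del cells it averaged 1.86 ± 0.110 after dTAG13 and 4.57 ± 0.384 after DMSO (−1.25, adjusted p = 4.10e-09), while the INTS11 line was at 0.04 (adjusted p = 0.804). In both lines with tagged INTS8, then, ZC3H6 fell where ZC3H4 rose. The difference between the INTS11 and INTS8 lines was 1.47 (adjusted p = 4.27e-07), and between the INTS11 and N211del lines 1.29 (adjusted p = 3.01e-06).

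In batch 2 ZC3H6 fell at 3 h in both lines, by 0.36 in the INTS11 line (adjusted p = 0.0121, limma) and by 0.75 in the N211del line (adjusted p = 0.000117). ZC3H8 was called higher in 6 of 7 comparisons on the deposited scale (not in INTS11 cells of batch 1, 0.22, adjusted p = 0.0547) and in 6 of 7 after centring (not in N211del cells of batch 1, 0.12, adjusted p = 0.0528). The SET1 methyltransferase gene SETD1B rose at 3 h of batch 2 in the INTS11 line, to 27.4 ± 0.600 units per kb, against 17.4 ± 0.716 at 0 h (SD, n = 2 each; 0.65, adjusted p = 2.46e-06). HCFC1, a SET1 partner, fell in the INTS8 line (−0.42, adjusted p = 0.000932), and ASH2L, a core subunit shared by such enzymes, rose in the N211del line (0.52, adjusted p = 1.83e-05, batch 1; 0.26 after centring, adjusted p = 0.00317). In the whole list 1 gene was higher and 1 lower in the INTS11 line of batch 1 (19.4% and 19.8% of all genes), 6 and 2 in the INTS8 line (34.6% and 21%), and 5 and 1 in the N211del line (48.5% and 7.1%). After centring these counts were 3 and 1 (26.1% and 24.5% of all genes), 5 and 2 (30.7% and 36.4%), and 3 and 4 (26.9% and 35.2%).

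Of 24 gene names for ARS2 and nuclear RNA decay, where SKIV2L2 and MTREX name the same gene, 7 were present. With INTS11 degraded, 5 of them were lower and 0 higher in batch 1 (median −0.22, beside −0.03) and again at 3 h of batch 2 (median −0.16, beside 0.08), where 19.8% and 19.3% of all genes were lower. After centring 6 were lower in batch 1 (24.5%) and 5 at 3 h (28.9%). The exosome subunit EXOSC2 fell by 0.59 in batch 1 (adjusted p = 1.09e-06, limma), the cap-binding protein NCBP3 by 0.51 (adjusted p = 3.22e-05) and the RNA export adaptor PHAX by 0.34 (adjusted p = 0.00163). INTS8 cells had 2 lower (21% of all genes, and 3 after centring, beside 36.4%), NCBP3 (−0.19, adjusted p = 0.0417, and −0.30 after centring) and the exosome cofactor C1D (−0.26, adjusted p = 0.00452). The N211del line of batch 1 had 2 higher (48.5%) and 0 lower (7.1%), and after centring 0 higher (26.9%) and 5 lower (35.2%).

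Of 9 genes for the 3′ ends of histone RNAs 5 were present, with SYMPK again among them. After dTAG13 in the INTS11 line of batch 1, 3 were lower, as were 19.8% of all genes (24.5% with centring, which also gave 3): SYMPK, the stem-loop binding protein SLBP (−0.28, adjusted p = 0.00223, limma) and LSM11 (−0.35, adjusted p = 0.0183), a subunit of the U7 particle that guides histone cleavage. At 3 h of batch 2 LSM11 in the INTS11 line was at 5.84 ± 0.462 units per kb, against 9.29 ± 0.241 at 0 h (SD, n = 2 each), a fall of −0.66 ± 0.08 (SE) that passed the threshold. For the N211del line it was at 9.02 ± 0.640 at 3 h and 6.98 ± 0.408 at 0 h (0.36, adjusted p = 0.00230), and centring took that rise to 0.17 (adjusted p = 0.104). That difference between the lines was −1.03 (adjusted p = 6.25e-05), and −0.89 after centring (adjusted p = 0.000349). In the N211del line at 1 h, 66% of all genes were higher and 4.92% lower. There 4 of 7 cleavage, 7 of 9 termination, 5 of 7 decay and 4 of 5 histone genes were higher, and 0 lower. Restrictor and SET1 genes had 6 of 9 higher and 1 lower. After centring, in that order, 1, 0, 0, 0 and 4 were higher (29.5% of all genes) and 5, 7, 5, 3 and 3 lower (36.1%).

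**Figure D4:**
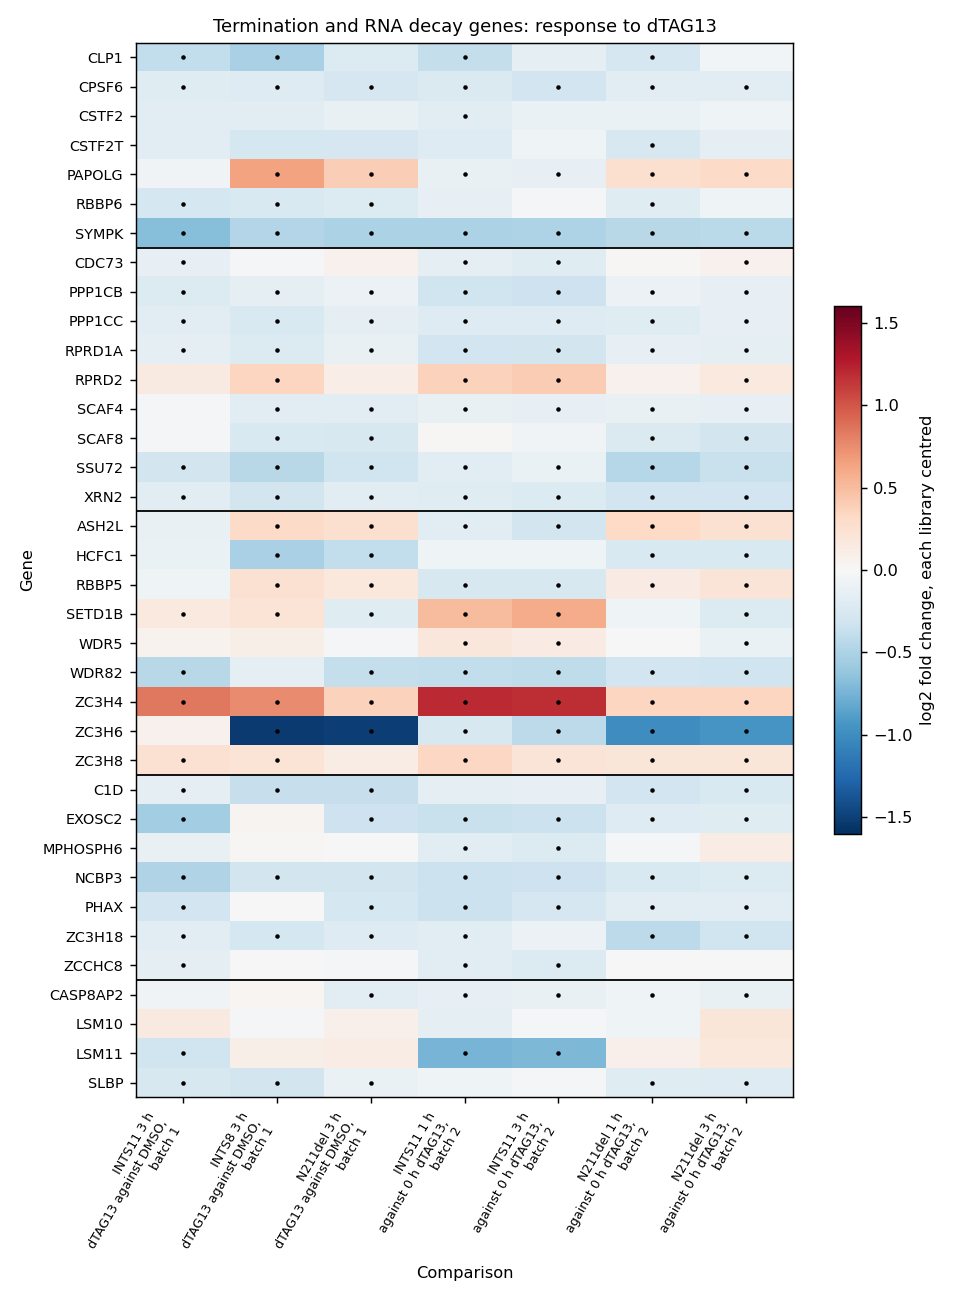
Log2 fold change after dTAG13, each library centred on its median gene, for the genes of the 5 pathway lists counted in the text that are present in the files (vertical axis, lists parted by lines) in 7 comparisons (horizontal axis); red is higher, blue lower, and a dot marks an adjusted p under 0.05. The SYMPK and XRN2 rows are blue with a dot in all 7 columns, as are those of CPSF6, NCBP3 and others, the ZC3H4 row is red with a dot in all 7, and ZC3H6 is darkest in the INTS8 and N211del columns of batch 1.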

How the data were processed

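TT-seq libraries of DLD1 lines were taken as deposited, 24 in 12 groups of 2, with groups and batches from the labels. Times are those of the titles and characteristics, although the treatment protocol names 3 h for every sample. The submitters' processing notes name STAR 2.7.5c, Trim Galore 0.6.6, Picard 2.23.3, SAMtools 1.9, and DESeq2 1.26.0, besides the builds mm10 and hg19 without saying what each served for. The library kit was stranded, per the labels' protocols; no source used here says whether the counting was.

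The authors' deposited columns are headed FPKM, per the file headers, but their scale is that of a signal divided by gene length in kilobases. Batch 1 values are whole numbers over that length, and a factor applied before rounding would not be seen. In batch 2 each is a whole number divided by that length plus 1 base, times 1 factor per library (0.565 to 0.753), with 99.9 to 100% of values whole at a tolerance of 0.02. The lengths of the 4 members are 99.98 to 100% of their RefSeq spans, so introns are included. The test planned for FPKM was kept.

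A limma model (limma 3.58.1, R 4.3.3) was fitted to log2(value + 0.1), each batch apart, with 1 mean per group over the 12 libraries and a trended, robust spread. Genes with a mean of at least 0.1 were tested, 6579 in batch 1 and 6950 in batch 2, and two-sided p-values were adjusted by Benjamini-Hochberg over all of them within each of 18 contrasts, with calls at 0.05. Log2 fold changes refer to value + 0.1 and so understate those of genes with low values. The test was tried on simulated data. The series' design text calls the pairs biological duplicates, but does not say how they were kept apart, so the spread that p-values rest on is that of these libraries alone and may be technical. Replicate pairs gave a chi-square per gene of 0.88 to 1.74, and in 6 of 12 the difference was within counting noise. Scaling before rounding would lower this in batch 1. That reason does not cover the batch 2 pairs within counting noise, INTS11 at 0 h (1.02) and 3 h (1.00) and N211del at 3 h (1.02). These pairs may be technical, and n = 2 was kept throughout.

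The members and lists were chosen with earlier results of these data known. Named genes are every member, up to 3 called genes with the largest change per list and contrast, 5 genes of like pattern (mean of at least 1) for ZC3H4 and for SYMPK, and the nearest listed gene on each side. ZC3H8, and the differences between lines for ZC3H6 and LSM11, were named after their values were seen. One gene of the termination list is not reported here and was left out of that list's counts. Gene order came from RefSeq. Alternatives were a pseudocount of 0.01 or of 1, a filter at a mean of 1 or none, centring, a fit of only those libraries that a contrast names, a replicate block, and each library left out. Voom on the whole-number units, averaging of pairs within counting noise, and 1 crossed block were added after seeing the data. Python 3.11.15, numpy 2.4.6, pandas 2.3.3 and matplotlib 3.10.9 were used.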

Additional observations from a re-analysis of the deposited data

Results flagged for a closer look

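Lines that differed in their response by a direct test on the deposited scale are given here, as differences of log2 fold changes from limma. Between the INTS11 and INTS8 lines at 3 h of batch 1, WDR82 differed by −0.43, SYMPK by −0.35, LSM11 by −0.55 and ZC3H6 by 1.47; after centring LSM11 was at −0.41 and short of the threshold (adjusted p = 0.0522). Between the INTS11 and N211del lines of batch 1, WDR82 differed by −0.36, SYMPK by −0.47, XRN2 by −0.29, LSM11 by −0.73 (−0.44 after centring, adjusted p = 0.0453) and ZC3H6 by 1.29. With centring WDR82 was at −0.06 and XRN2 at 0.01, both short of the threshold (adjusted p = 0.652 and 0.951, limma). SYMPK, at −0.18, was past it. In batch 2 at 1 h, ZC3H4 differed by 0.65, ZC3H6 by 0.55, WDR82 by −0.28, SYMPK by −0.26 and LSM11 by −1.02. At 3 h ZC3H4 differed by 0.69, ZC3H6 by 0.39, WDR82 by −0.23, SYMPK by −0.21 and LSM11 by −1.03. Centring took WDR82 and SYMPK to −0.09 and −0.06 at 1 h, and to −0.09 and −0.07 at 3 h, all short of the threshold. The ZC3H4 difference in batch 2 contains the 0 h gap by construction. At 0 h ZC3H4 was 0.65 higher on the log2 scale in N211del cells (22.1) than in INTS11 cells (14.1). Both lines were close at 1 h (35.7 in N211del, 35.9 in INTS11) and at 3 h (32.2 and 33.2). Why the 0 h levels differed was not tested.

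On the deposited scale, control cells of the N211del and INTS11 lines stood in opposite order in the 2 batches for WDR82 (−0.18 with DMSO in batch 1, 0.29 at 0 h in batch 2) and for XRN2 (−0.65 and 0.40). After centring XRN2 kept the opposite order (−0.44 and 0.36). WDR82 did not, at 0.03 with DMSO (adjusted p = 0.702, limma) and 0.26 at 0 h. The differences between batches were not tested.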

How the results depend on the processing

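The rise of ZC3H4 after dTAG13 held in 91 of 91 alternatives over the 7 comparisons (0.34 to 1.43). SYMPK kept its direction in all 91 of its own. Its call in the N211del line of batch 1 was lost with only the libraries that contrast names (−0.24), with pairs averaged (−0.24) and with 3 of 4 single libraries left out (range over the 4, −0.34 to −0.14), and a call was gained at 1 h with centring (−0.44) and voom (−0.40). Centring and voom rescale the libraries. Under centring and voom XRN2 turned to −0.17 and −0.15 in the N211del line of batch 1 and to −0.31 and −0.27 at 1 h, and WDR82 at 1 h to −0.31 and −0.27. ZCCHC8, an exosome adaptor that rose in the N211del line, turned to −0.0289 and −0.0101 in batch 1, and to −0.0013 with centring at 3 h of batch 2. XRN2 from 1 h to 3 h in that line turned to 0.0046 with centring. Its differences between lines turned to 0.16 with voom (INTS11 and INTS8), to 0.0054 and 0.0289 (INTS11 and N211del, batch 1), to 0.11 and 0.14 (1 h) and, with voom, to 0.14 (3 h). N211del against INTS11 DMSO cells turned to 0.16 and 0.29 for ZC3H4, 0.0307 and 0.16 for WDR82 and 0.14 and 0.27 for SYMPK. Against INTS8 DMSO cells they turned to 0.0808 and 0.17, 0.0021 and 0.0935, and 0.28 and 0.37.

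Counts of members called moved as follows. With centring there were 4 for the N211del line in batch 1 (4087 of 6579 tested genes were called in either direction) and 4 at 1 h (4558 of 6950). From 1 h to 3 h there were 0 (1333 of 6950). There was 1 each for the N211del and INTS8 difference (756 of 6579), the 3 h difference of batch 2 (3745 of 6950) and the INTS8 and INTS11 DMSO cells (2605 of 6579). With voom the N211del line again had 4, 4 and 0 (4182 of 6579, 4688 of 6763 and 1901 of 6763 genes). There was 1 for the INTS11 and N211del difference of batch 1 (2626 of 6579) and 3 for the N211del and INTS8 difference (1346 of 6579). INTS8 and N211del against INTS11 DMSO cells had 1 and 4 (2883 and 4720 of 6579). With only the named libraries there was 1 for the N211del line of batch 1 (3194 of 6579 genes) and 2 for the INTS8 and INTS11 DMSO cells (2103 of 6579). With pairs averaged there was 1 for the N211del line of batch 1, 0 from 1 h to 3 h, 0 for both INTS11 differences of batch 1, and 1 each for the N211del DMSO comparisons. With single libraries left out there were 1 to 2 for the N211del line of batch 1, 0 to 2 from 1 h to 3 h, 1 to 2 for the INTS11 and INTS8 difference, 0 to 1 for the N211del and INTS8 difference, 1 to 3 for the 3 h difference of batch 2 and 1 for the N211del and INTS11 DMSO cells. A group left with 1 library is assumed to vary like the others.

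Same-numbered libraries deviated from their group means with r of −0.10 to 0.07, so the numbers do not pair them. With a replicate block the INTS11 line of batch 1 had 3 members called against 4 without it, as XRN2 (−0.20) went to an adjusted p of 0.0538, and the 3 h difference between the INTS11 and N211del lines had 2 against 3, as SYMPK went to 0.05. A crossed replicate block for the N211del line from 1 h to 3 h called 0. With a pair of libraries per group, small changes such as those of XRN2 lay near the threshold; the median SE over genes was 0.088 (batch 1) and 0.058 (batch 2).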
